A study of Mus musculus with 4 samples.

Results

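Adm-positive B cells are B cells of mouse peripheral blood whose transcripts include that of Adm, the gene of the secreted peptide adrenomedullin. A cell was counted as one when it held at least 3 UMIs of Cd79a, a chain of the B cell receptor complex, and at least 1 UMI of Adm. It could hold at most 4 UMIs of Lyz2, a monocyte gene, and at most 1 UMI of the T cell genes Cd3d, Cd3e and Cd3g together. A UMI (unique molecular identifier) stands for 1 captured transcript. By this rule 404 of 14588 cells were Adm-positive B cells, among 8898 B cells under the same limits on Cd79a, Lyz2 and Cd3. The Adm count chose the cells, so every level of Adm below is a description.

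Blood of C57BL/6 females was sequenced as 4 samples, 2 young (4 months old) and 2 old (24 months old), none of them treated or genetically altered as far as the labels say. Each sample pooled 2 mice, cells cannot be traced to a mouse, and n is 2 samples per age. Libraries were made by droplet capture of the 3′ ends of transcripts, and the samples held 2187 to 4642 cells and 9521253 to 18658072 UMIs. The sample with the most UMIs, old sample 1, held most of the Adm-positive B cells. Altogether 108 cell barcodes occurred in more than 1 library, and no such pair consisted of Adm-positive B cells in both.

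Adrenomedullin is a vasodilator that is cut from a longer precursor and amidated by the enzyme encoded by Pam. Its receptor is formed by Calcrl together with a protein of the Ramp family, and Ackr3 can take the peptide up. The gene is induced by low oxygen through hypoxia-inducible factors in many cell types. Mature B cells of the blood are mostly naive follicular cells that carry Fcer2a and Ccr7 transcripts, beside smaller memory, marginal zone and B-1 cell fractions. Of the other marker genes of these cells, Zcwpw1 encodes a reader of histone methylation known for its part in meiotic recombination, Crip1 a small LIM domain protein and S100a6 a calcium binding protein.

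Because the Adm transcript defines the cells, the promoter it starts from is shown. The 250 bases before the first RefSeq start of Adm lie at chr7:110627407-110627656 on the plus strand of GRCm38.p6 (RefSeq annotation), upstream of the first exon. Capitals mark a GC box, GGGCGG read on the opposite strand.

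Adm promoter: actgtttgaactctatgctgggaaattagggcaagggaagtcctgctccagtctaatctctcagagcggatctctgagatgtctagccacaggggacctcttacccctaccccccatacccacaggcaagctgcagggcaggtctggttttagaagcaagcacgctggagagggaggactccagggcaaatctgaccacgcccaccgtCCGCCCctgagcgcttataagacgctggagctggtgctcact

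Both strands were searched for exact matches to 3 motifs. The hypoxia response core ACGTG and the TATA box TATAAA were not in this window, and 16.6% and 12.4% of the 32851 promoters of the same length held them. The window does hold TATAAG near its 3′ end, which differs from TATAAA in the last base and was not counted. The GC box was in 32.7% of those promoters. These matches describe the letters and are not evidence of a bound factor.

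Adm-positive B cells made up a larger part of the B cells of old sample 1 than of any other sample. They were 36 of 2019 B cells in young sample 1 (1.78%, 95% exact binomial interval 1.25 to 2.46%). In young sample 2 they were 26 of 2008 (1.29%, 0.848 to 1.89%). In old sample 1 they were 318 of 3349 (9.50%, 8.52 to 10.5%), and in old sample 2 they were 24 of 1522 (1.58%, 1.01 to 2.34%). Old sample 2 thus lay between the young samples, old sample 1 lay above all 3, and the cells were not a feature of both old samples. The intervals cover counting error only, and the shares were not tested because Adm chose the cells.

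Old sample 1 held 78.7% of the Adm-positive B cells and 88.3% of those with at least 2 Adm UMIs, whose numbers were 13, 7, 173 and 3 in young samples 1 and 2 and old samples 1 and 2. The most Adm UMIs in a single cell were 10, 5, 15 and 2 in the same order. Cells of old sample 1 were also sequenced more deeply than those of the young samples, with a median of 3186.5 UMIs against 2332 and 2233, although old sample 2 had 3482. After each cell was thinned to 1000 UMIs, an Adm UMI remained in 0.594% and 0.548% of young, 3.70% of old sample 1 and 0.329% of old sample 2 B cells. The order of old sample 1 against the rest therefore did not change at equal depth.

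Adm was also looked for in T cells and monocytes, as a background that may include RNA free in the suspension. Whether these cells express Adm themselves was not tested. In old sample 1 an Adm UMI occurred in 2 of 225 T cells (0.889%) and in 6 of 286 monocytes (interval 0.774 to 4.51%). Median depths there were 2576 UMIs in T cells, 3090 in monocytes, 2883 in B cells without Adm and 6274.5 in Adm-positive B cells. In the other samples an Adm UMI occurred in 3 of 906, 1 of 728 and 0 of 171 T cells and in 1 of 109, 0 of 163 and 0 of 211 monocytes. The interval of the B cell share lay above those of T cells and monocytes in old sample 1. In young samples 1 and 2 it lay above that of the T cells (up to 0.965% and 0.763%) and overlapped the wide one of the monocytes, and in old sample 2 it overlapped both.

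The samples also differed in S100a6-positive B cells. B cells with at least 2 S100a6 UMIs numbered 309 of 2019, 198 of 2008, 2045 of 3349 and 626 of 1522 in young samples 1 and 2 and old samples 1 and 2. Among them an Adm UMI was in 9.39% (6.38 to 13.2%) and 5.05% of young and in 14.4% (interval from 12.9%) and 2.24% of old samples. On this base old sample 1 was still highest, but its interval overlapped that of young sample 1, and old sample 2 was lowest.

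**Figure D1:**
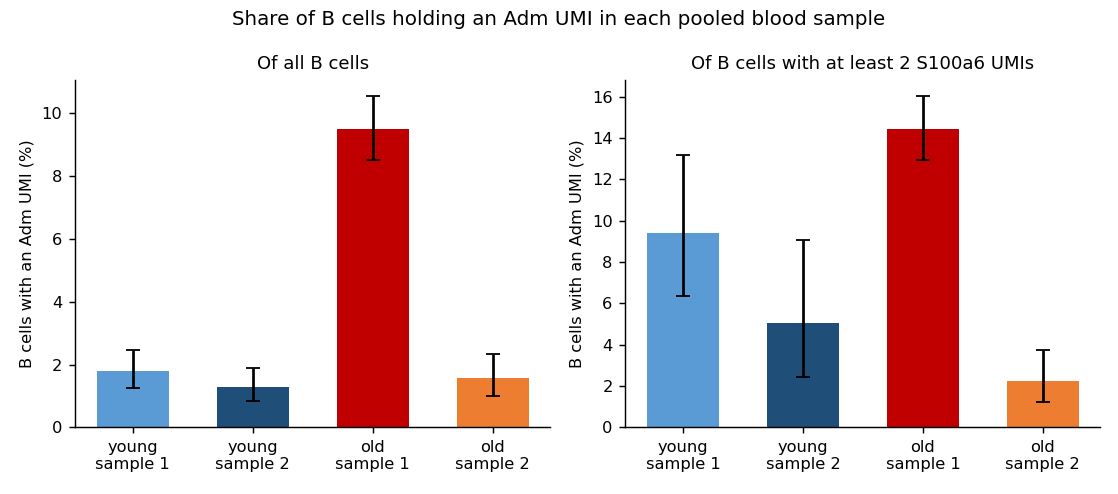
Share of B cells (percent) with an Adm UMI in each of the 4 samples, of all B cells on the left and of those with at least 2 S100a6 UMIs on the right, with 95% exact binomial intervals as error bars, which cover counting error only. On the left old sample 1 stands at 9.50% and the others between 1.29% and 1.78%, and on the right the intervals of old sample 1 and young sample 1 overlap.

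The label as B cells held against the B lineage markers. In old sample 1, Cd79b, the partner of Cd79a, had a UMI in 99.1% of Adm-positive B cells and Ms4a1 (CD20) in 98.4%. Their levels were 1776 and 1244 CPM (UMIs of a gene per 1000000 UMIs of the group) against 1959 and 1087 CPM in the S100a6-positive B cells without Adm. The summed level of 8 T cell markers was 23.9 CPM in Adm-positive cells and 29.5 CPM in those comparison cells, with Cd4 at 0. Transcripts of immunoglobulin genes were not analysed here.

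The other 3 marker genes did not mark the cells alike. Zcwpw1 stood at 256 and 236 CPM in Adm-positive cells of the young samples, 902 CPM in those of old sample 1 and 190 CPM in those of old sample 2. It had a UMI in 77.0% of the Adm-positive cells of old sample 1, against 8.00% of its T cells and 9.79% of its monocytes. Crip1 stood at 4851, 2859, 12664 and 3613 CPM and S100a6 at 2204, 2071, 4874 and 876 CPM in the same order, again highest in old sample 1. Among Adm-positive cells 5, 16, 14 and 8 held no S100a6 UMI.

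Of the 318 cells of old sample 1, 145 sat at the Adm limit itself with 1 UMI, and Zcwpw1 was found in 60.7% of them. Of the other limits, 9 cells had exactly 3 Cd79a UMIs, 66 had 3 or 4 Lyz2 UMIs and 24 had 1 Cd3 UMI. Just outside stood 7 Adm-positive cells with 2 Cd79a UMIs and 38 with over 4 Lyz2 UMIs. Zcwpw1 was found in 90.9% of the cells with 3 or 4 Lyz2 UMIs and in 92.1% of those above that limit.

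Adm-positive B cells of old sample 1 were next set against Adm-negative B cells of the same sample, in order to describe what else they express. One comparison group was the 1750 cells with at least 2 S100a6 UMIs, called S100a6-positive here, and the other the 764 cells without an S100a6 UMI. All 3 groups come from 1 sample, so there was no replicate and no test. Ratios of CPM are given with 95% exact intervals that cover counting error only. Genes with a mean CPM of at least 50 over both groups were measured, and a gene was called higher or lower past 2-fold. Median depths were 6274.5 UMIs in Adm-positive, 4360.5 in S100a6-positive and 2140.5 in S100a6-negative cells.

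Against S100a6-positive B cells, Adm-positive cells showed a short list of genes at several times the level and almost none at a lower level. Of 2243 measured genes 50 were called higher (2.23%) and 3 lower (0.134%), or 65 and 12 when ribosomal protein genes were left out of the totals, and the median log2 ratio was 0.06. The largest ratio was that of Gstt1, a glutathione S-transferase, at 149 CPM against 15.6 CPM (9.57-fold, 7.77 to 11.8). Stxbp6, which binds SNARE proteins, followed at 151 against 19.9 CPM (7.59-fold). Ly6k, a membrane-anchored protein of the Ly6 family, stood at 172 against 26.3 CPM (6.56-fold). The DNA repair gene Mgmt, whose product removes alkyl groups from guanine, stood at 189 against 30.9 CPM (6.12-fold).

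The list also held both partners of the keratin pair of simple epithelia. Krt8 stood at 331 against 59.6 CPM (5.55-fold) and Krt18 at 338 against 87.3 CPM (3.88-fold). Of membrane proteins, Ms4a6c, a relative of CD20, stood at 185 against 34.5 CPM (5.37-fold) and the protease inhibitor Spint2 at 167 against 32.7 CPM (5.11-fold). Slc37a4, which carries phosphorylated glucose into the endoplasmic reticulum, Mmd, Litaf and the tubulin gene Tubb6 completed the 12 highest genes, with ratios of 4.40, 4.24, 3.97 and 3.71.

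**Figure D2:**
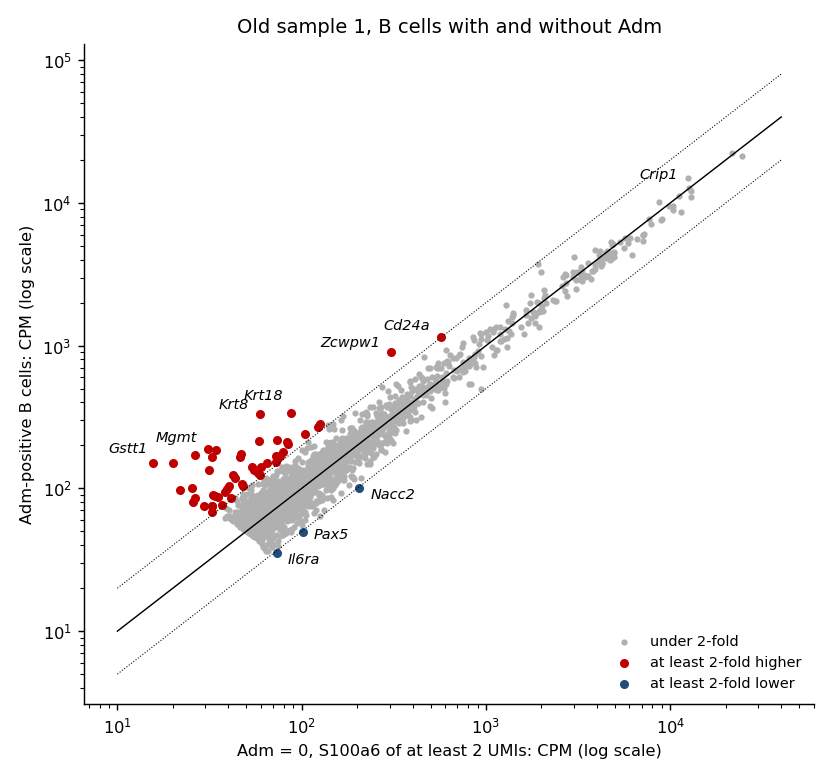
CPM of the 2243 measured genes in Adm-positive B cells (vertical, log axis) against S100a6-positive Adm-negative B cells (horizontal, log axis) of old sample 1, a point for each gene, with equality as a solid and 2-fold as dotted lines. The 50 genes called higher (red) lie mostly at low levels, Gstt1 at 149 against 15.6 CPM, whereas Crip1 lies on the line of equality, and the 3 called lower (blue) lie at the dotted line.

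Of the marker genes, Zcwpw1 was higher in Adm-positive cells, at 902 against 305 CPM (2.95-fold, 2.78 to 3.14). Crip1 was not, at 12664 against 12612 CPM (1.00-fold). Crip1 thus marked S100a6-positive B cells with and without Adm to the same level, while Zcwpw1 and the 12 leading genes were higher with Adm.

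The 3 genes called lower were Il6ra, a receptor chain for interleukin 6 (35.2 against 73.2 CPM, 0.480-fold), Nacc2 (0.489-fold) and Pax5. Pax5, the transcription factor that maintains B cell identity, stood at 49.8 against 101 CPM (0.491-fold, 0.396 to 0.604). Each lay close to the limit of 2-fold.

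Gene lists for B cell functions moved little in this comparison. Of 15 measured genes of the B cell receptor and its coreceptors, only Pax5 was called lower and none higher (median log2 ratio -0.14, against 0.06 over all genes). Of 7 naive follicular, 4 marginal zone, 4 B-1 and 4 memory genes measured, none was called, with medians of -0.26, -0.07, -0.03 and -0.13. Of 10 genes for age-associated B cells 2 were measured and none was called. Its defining genes Tbx21 and Itgax had 1 and 2 UMIs in all Adm-positive cells of old sample 1.

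Of 17 measured S100, annexin, galectin and LIM genes 2 were called higher and none lower, with a median log2 ratio of 0.23. These were Anxa5, a phospholipid-binding annexin, at 214 against 58.6 CPM (3.66-fold), and Lgals3 (galectin-3), at 165 against 46.5 CPM (3.55-fold). S100a10 and Vim stood at 1.01-fold and 1.03-fold. In the transitional B list Cd24a, a surface glycoprotein, was 1 of 2 measured genes called higher (1149 against 566 CPM, 2.03-fold).

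Genes of activation were partly higher. Of 12 measured NF-kB and immediate early genes 2 were called higher and 10 lay above a ratio of 1, as did 1315 of all 2243 measured genes. Nfkb2, a subunit of NF-kB, stood at 75.7 against 29.7 CPM (2.55-fold) and the activation marker Cd83 at 141 against 60.2 CPM (2.35-fold). Nfkb1, another subunit, stood lower at 41.5 against 68.2 CPM (0.609-fold, 0.479 to 0.766). Irf4, a transcription factor of activated B cells and plasma cells, was the only gene called among 3 measured plasma cell genes (94.2 against 38.5 CPM, 2.45-fold). Prdm1, which drives plasma cell formation, had 10 UMIs in Adm-positive and 103 in S100a6-positive cells (4.88 against 12.4 CPM, below the minimum), and Sdc1 and Tnfrsf17 had no UMI in Adm-positive cells. A pair of genes below the CPM minimum was picked after their values were seen, Pdcd1lg2 (PD-L2; 57.6 against 14.2 CPM, 4.07-fold, 3.12 to 5.29) and Ctla4 (55.2 against 19.3 CPM, 2.85-fold, 2.22 to 3.65), which both encode proteins that restrain T cells.

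None of 9 measured MHC class II genes was called, although 8 lay above a ratio of 1 (median log2 ratio 0.20). H2-Aa stood at 1.39-fold and the invariant chain gene Cd74 at 1.21-fold. Of 18 hypoxia response genes 6 were measured and none was called. All 6 lay above a ratio of 1, as did 1315 of all 2243 measured genes (median log2 ratio 0.49, against 0.06 over all genes). Of the others, Vegfa and Egln3 had no UMI in Adm-positive cells. Ldha, the lactate dehydrogenase of glycolysis, stood at 332 against 227 CPM (1.46-fold), and the hypoxia target Slc2a1 at 11.2 against 20.1 CPM, below the minimum. Of 89 ribosomal protein genes none was called (median log2 ratio -0.15), nor was any of 75 respiratory chain genes (0.14). The same held for 9 measured genes of trafficking, 6 of survival and TNF receptors, 3 of the interferon response, 3 cell cycle brakes and 2 proliferation genes.

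No gene of the adrenomedullin pathway beside Adm reached the CPM minimum. In Adm-positive and S100a6-positive cells of old sample 1, the receptor gene Calcrl had 9 and 19 UMIs, Ramp1 3 and 29, and Ackr3 11 and 6. Pam, which amidates the peptide, had no UMI in Adm-positive cells of old sample 1. Pathway members other than Adm were thus close to the limit of detection in these cells.

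The leading genes occurred together in single cells. The 6 with the largest ratios (Gstt1, Stxbp6, Ly6k, Mgmt, Krt8 and Ms4a6c) were counted per cell, and since they were picked on these cells the shares within old sample 1 are a description. At least 3 of the 6 had a UMI in 196 of 318 Adm-positive cells of old sample 1 (61.6%, 56.0 to 67.0%). The share was 35.2% of 145 cells with 1 Adm UMI and 83.8% of 173 cells with 2 or more. It was 6.06% of S100a6-positive cells (106 of 1750), 0 of 764 S100a6-negative cells (interval up to 0.482%) and 0 of the 14 Adm-positive cells without S100a6. Of 302 B cells of old sample 1 with at least 3 of the 6 genes, 64.9% held an Adm UMI.

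The same 6 genes did not occur together in the other samples. At least 3 of them had a UMI in 1 of 36 and 0 of 26 Adm-positive cells of young samples 1 and 2 and in 1 of 24 of old sample 2. In these samples 13 B cells in all reached 3 of the 6 genes. In old sample 1, 2 of 286 monocytes and 0 of 225 T cells did. At 1000 UMIs per cell at least 1 of the 6 remained in 57.2% of Adm-positive, 9.26% of S100a6-positive and 4.45% of S100a6-negative cells of old sample 1. In its monocytes that share was higher, at 71.3%, and Stxbp6 had a UMI in 19.9% of them before thinning. Single genes of the 6 were thus not particular to Adm-positive B cells.

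**Figure D3:**
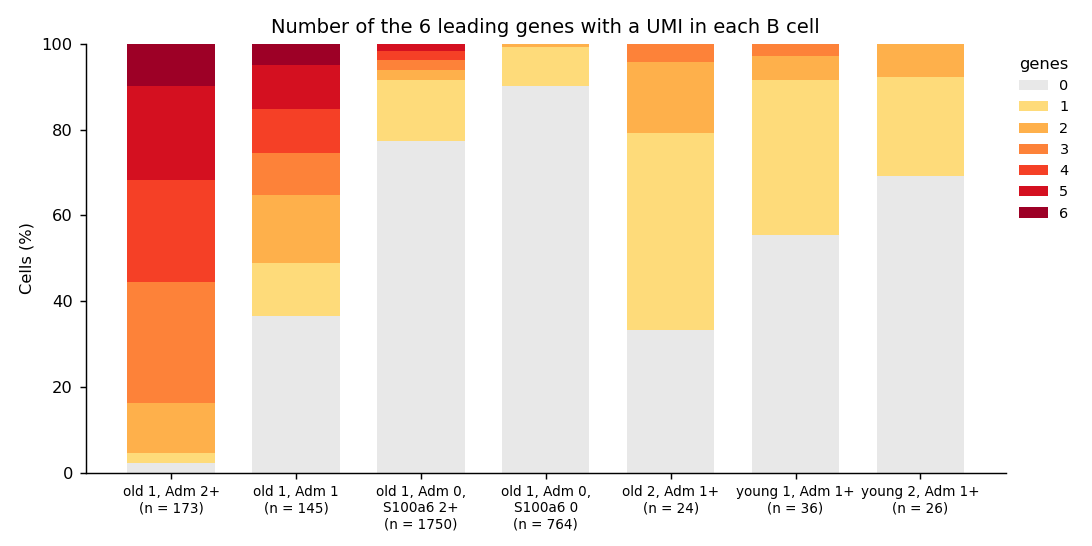
Stacked shares of cells (percent) by how many of Gstt1, Stxbp6, Ly6k, Mgmt, Krt8 and Ms4a6c had a UMI, in B cells of old sample 1 with at least 2, with 1 and with 0 Adm UMIs and in Adm-positive B cells of the other samples, with the number of cells under each bar. In old sample 1, 83.8% of cells with at least 2 Adm UMIs hold 3 or more of the 6 genes, and in each of the other samples at most 1 Adm-positive cell does.

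Levels also differed with the number of Adm UMIs within old sample 1. Zcwpw1 stood at 305, 665, 1008, 1122 and 1020 CPM in cells with 0 (S100a6-positive), 1, 2, 3 to 4 and at least 5 Adm UMIs, which were 1750, 145, 61, 64 and 48 cells. Gstt1 stood at 15.6, 91.3, 171, 162 and 235 CPM and Ms4a6c at 34.5, 101, 200, 197 and 336 CPM. Pax5 stood at 101, 58.8, 36.2, 53.4 and 41.0 CPM. The step from 0 to 2 Adm UMIs was larger than any step after it for Zcwpw1, Gstt1, Ms4a6c and Pax5. Gstt1 and Ms4a6c stood higher again at 5 or more Adm UMIs. The median depth rose over these classes from 4360.5 to 7385.5 UMIs, and its part in the levels was not tested.

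**Figure D4:**
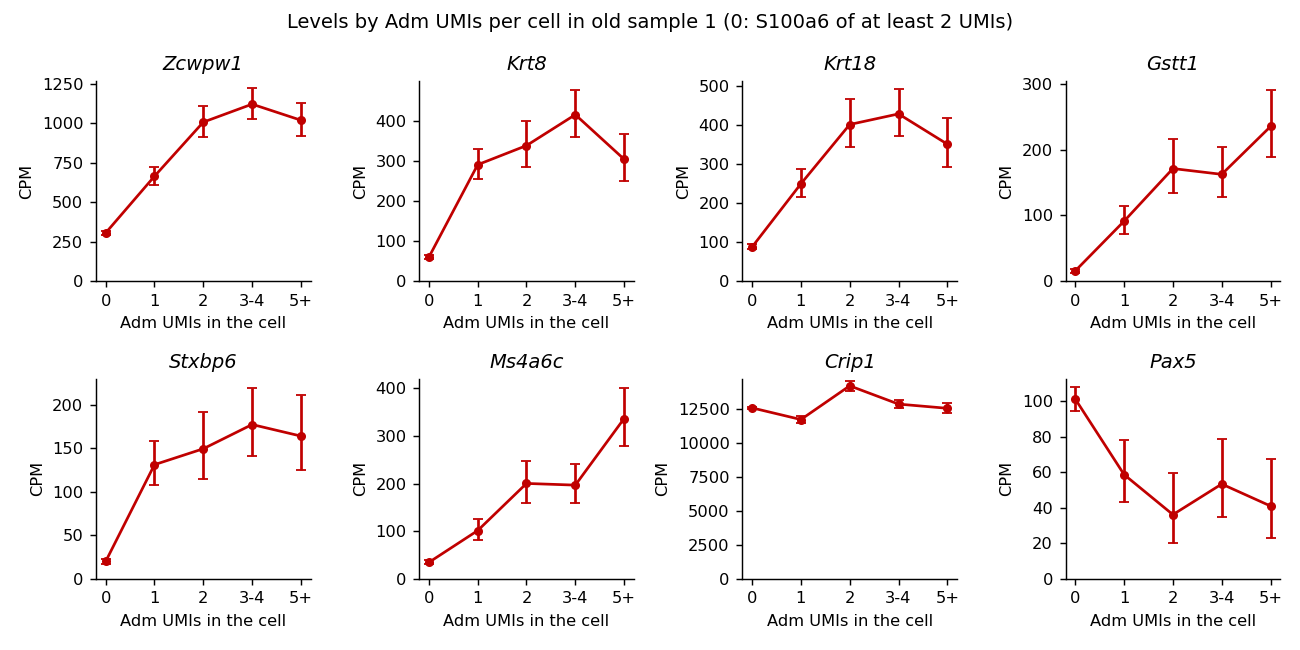
CPM of 8 marker and leading genes (linear axes from 0) in B cells of old sample 1 by the number of Adm UMIs in the cell, with S100a6-positive cells at 0 and 95% exact Poisson intervals, which cover counting error only. Zcwpw1 goes from 305 CPM without Adm to 1008 CPM at 2 Adm UMIs and stands at 1020 CPM at 5 or more.

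Platelet transcripts moved with Adm in old sample 1. A UMI of Pf4 or Ppbp was in 70.4% of Adm-positive, 43.4% of S100a6-positive and 36.3% of S100a6-negative droplets. The 7 platelet markers summed to 811, 387 and 639 CPM, and of 3 measured ones Ppbp (2.19-fold) and Gng11 (2.28-fold) were called higher against S100a6-positive cells, with Pf4 at 1.95-fold. In Adm-positive cells of old sample 2 the sum was 238 CPM, and in those of the young samples 0 and 24.4 CPM. Other foreign markers did not rise in the same way, since monocyte and neutrophil markers summed to 951 against 963 CPM and red cell markers to 42126 against 48560 CPM in Adm-positive and S100a6-positive cells.

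Among B cells of old sample 1 without a Pf4 or Ppbp UMI, 94 of 1906 held Adm (4.93%, 4.00 to 6.00%), and among those with one 224 of 1443 (15.5%). Without such droplets the shares in the other samples were 1.79%, 1.26% and 1.27%, and old sample 1 held 56.0% of the Adm-positive B cells. At least 3 of the 6 leading genes had a UMI in 37.2% of those 94 cells, against 2.83% of S100a6-positive cells without a platelet UMI. All 12 leading genes stayed past 2-fold in droplets without a platelet UMI, which were among the cells that had picked them. There 30 genes in all were called higher and 9 lower against S100a6-positive cells. This split was made after the data were seen.

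Against S100a6-negative B cells, which carry the transcripts of naive follicular cells, the difference was broad. Of 2277 measured genes 162 were called higher (7.11%) and 118 lower (5.18%). Without droplets with a platelet UMI 131 were called higher and 137 lower, and within the middle range of Adm-positive UMI totals, which left 15 comparison cells, 523 and 86. Krt18 had the largest ratio, at 338 against 2.82 CPM (120-fold, 51.3 to 371, from 5 UMIs in the comparison group). Tppp3, a tubulin-binding protein, stood at 480 against 19.1 CPM (17.8 to 36.4-fold by its interval), Zcwpw1 at 902 against 36.0 CPM (19.5 to 32.6-fold), and the lamin gene Lmna at 197 against 10.7 CPM (18.4-fold). A pair of G protein subunits, Gng13 (278 against 14.1 CPM) and Gnb3 (285 against 15.8 CPM), stood at 19.7-fold and 18.1-fold.

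The lowest genes included markers of naive B cells. The IgE receptor gene Fcer2a stood at 15.1 against 273 CPM (0.0554-fold) and the chemokine receptor Ccr7 at 28.3 against 231 CPM (0.123-fold). Vpreb3, a gene of early B cells, stood at 24.4 against 345 CPM (0.0708-fold). Of 10 measured naive follicular genes 6 were called lower and none higher (median log2 ratio -1.60).

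Other lists also differed. Of 16 measured S100, annexin, galectin and LIM genes 13 were called higher (median log2 ratio 1.89), although S100a6 itself chose the comparison cells. All 4 measured B-1 genes were called higher, among them Zbtb32 (366 against 46.2 CPM, 7.93-fold) and Bhlhe41 (139 against 23.7 CPM, 5.88-fold), while the defining B-1 gene Cd5 had 6 UMIs in Adm-positive cells. All 3 measured plasma cell genes were called higher, among them Mzb1 (2.11-fold). Of 10 MHC class II genes 4 were called lower, among them H2-Oa (0.328-fold) and the regulator Ciita (0.248-fold), and of 5 interferon response genes 3 were called lower.

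The leading genes of old sample 1 were then looked at in the 3 samples that had not chosen them. The 12 genes together stood at 521, 422, 2189 and 856 CPM in Adm-positive cells of young samples 1 and 2 and old samples 1 and 2. In S100a6-positive cells without Adm they stood at 334, 229, 432 and 478 CPM. The ratios were 1.56 (1.26 to 1.91), 1.84 (1.33 to 2.51), 5.06 (4.84 to 5.29) and 1.79 (1.48 to 2.14). The sum thus lay above 1 in all 4 samples. The interval of old sample 1 lay above the others, but this ratio in that sample had picked the genes. Its higher value is therefore no measure of a difference between samples. Of the 12 genes, however, only 8, 7, 12 and 6 lay above 1 in the same order, and 2, 3, 12 and 2 had an interval above 1. In old sample 2, Ms4a6c gave 56 and Gstt1 15 of the 126 UMIs of Adm-positive cells.

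Single genes did not repeat as uniformly. Ms4a6c stood at 3.79, 0.976, 5.37 and 3.04-fold in the same order of samples and Krt18 at 1.81, 1.07, 3.88 and 1.04-fold. Zcwpw1 stood at 3.89, 2.13, 2.95 and 0.576-fold, thus below 1 in old sample 2. In these ratios and the sums above, the Adm-positive cells included those without an S100a6 UMI. These were 5 of 36, 16 of 26, 14 of 318 and 8 of 24 cells, whereas all comparison cells held at least 2 S100a6 UMIs. The part of this difference in the ratios was not tested. Gstt1 had no UMI in Adm-positive or S100a6-positive cells of either young sample, and in old sample 2 its 15 UMIs came from 8.33% of 24 Adm-positive cells. Krt8, Ly6k, Mgmt and Stxbp6 had at most 6 UMIs each in Adm-positive cells of any of these 3 samples, which leaves wide intervals. Krt8 stood at 0.722 (0.223 to 1.82) in young sample 1, 7.48 (1.72 to 32.5) in young sample 2 and 1.29 (0.464 to 2.89) in old sample 2, and Mgmt at 0.933 (interval up to 2.46) in old sample 2.

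A test over these 3 samples was added after the data were seen. Adm-positive cells with at least 2 S100a6 UMIs (29, 10 and 14 cells) were compared with S100a6-positive Adm-negative cells of the same sample in edgeR's quasi-likelihood test with sample as a block. Of 4961 genes tested 6 were called at a Benjamini-Hochberg adjusted p under 0.05 (0.121%), 4 higher and 2 lower, and 295 had an unadjusted p under 0.05. None of the 12 leading genes was called. Of them 8 were tested, 2 had an unadjusted p under 0.05 and 7 lay above 0, with a median log2 fold change of 0.85 against -0.01 over all genes tested. Zcwpw1 had a log2 fold change of 1.18 (SE 0.30, edgeR adjusted p = 0.24), which was 0.51 without young sample 1 and 2.00 without old sample 2.

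Of the called genes, Lgals1 (galectin-1) stood at 548, 687 and 669 CPM in Adm-positive cells of young samples 1 and 2 and old sample 2. In the cells without Adm it stood at 336, 346 and 384 CPM (log2 fold change 0.88, SE 0.15, edgeR adjusted p = 0.012). Cfp (properdin of the complement system) stood at 61.4, 79.2 and 253 against 22.4, 30.4 and 65.1 CPM, higher in each sample (1.77, SE 0.30, edgeR adjusted p = 0.012). The histone gene H2afz (0.76) and the cyclin gene Ccnd2 (0.95) were also higher. Limd2 (-0.91) and Jchain, the joining chain of secreted antibody (-2.57), were lower. Jchain had no UMI in Adm-positive cells of either young sample, where it stood at 9.40 and 262 CPM in the cells without Adm. In old sample 2 it stood at 60.8 against 157 CPM.

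Markers of other cells moved with Adm in some of these samples when all Adm-positive cells were summed. NK markers stood at 435 against 151 CPM in young sample 1, and in old sample 2 red cell markers stood at 87497 against 36291 CPM and T cell markers at 74.7 against 36.9 CPM. Their part in the result was not tested.

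The calls depended on which samples entered. None was called in edgeR's test without young sample 2 (207 at an unadjusted p under 0.05) or without old sample 2 (327), each of which left 2 samples, and 10 genes were called without young sample 1. Without young sample 2 and without old sample 2 the log2 fold changes were 0.81 and 0.88 for Lgals1, 1.82 and 1.49 for Cfp, and -0.84 and -0.93 for Limd2. That of Jchain was -1.53 without young sample 2. DESeq2 called 0 genes, with 75 at an unadjusted p under 0.05.

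Whether the leading genes differed with age was tested in S100a6-positive B cells without an Adm UMI. In old sample 1 these cells were also the comparison group of the ratios that picked the genes. The test is therefore not independent of that choice. Of those 1750 cells, 106 held at least 3 of the 6 leading genes counted per cell. UMIs were summed over S100a6-positive Adm-negative B cells of each sample and old was compared with young in edgeR's quasi-likelihood test. Of 3980 genes tested 1 was called (0.0251%) and 434 had an unadjusted p under 0.05. Of the 12 leading genes 4 were expressed broadly enough to be tested, none was called, and 1 had an unadjusted p under 0.05. DESeq2 called 40 genes in all. With no filter on detection edgeR called 511 of 13767 genes, 367 of them higher in old samples. Among the higher ones were 7 of the 12, Krt18, Gstt1, Mgmt, Stxbp6, Krt8, Ms4a6c and Slc37a4. Their edgeR adjusted p ran from 2.38e-12 for Krt18 to 0.0056 for Slc37a4. The SE of Ms4a6c was 0.23 in this fit and 0.65 in the main one. With filterByExpr 11 of the 12 were tested and none was called, the lowest adjusted p being that of Mgmt (0.053, log2 fold change 1.97).

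The called gene was Cd9, a tetraspanin found on marginal zone and B-1 cells. It stood at 51.3 and 46.7 CPM in young and 264 and 226 CPM in old samples (log2 fold change 2.33, SE 0.16, edgeR adjusted p = 0.026). It missed the threshold without young sample 1 (edgeR adjusted p = 0.557) and without young sample 2 (0.186), where its log2 fold change was 2.36 and 2.31. In Adm-positive cells of old sample 1 Cd9 stood at 401 CPM, 1.52-fold above the S100a6-positive cells. Platelet RNA in the cells of the age test also differed with age. A Pf4 or Ppbp UMI was in 0% and 1.06% of these droplets in young samples and in 43.4% and 38.4% in old samples. The part of platelet RNA in the call of Cd9 was not tested.

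Zcwpw1 stood at 65.8 and 111 CPM in young and 305 and 330 CPM in old samples and did not pass the test (log2 fold change 1.87, SE 0.27, edgeR adjusted p = 0.18). DESeq2 gave it an adjusted p of 1.03e-08, and over all alternatives the adjusted p ranged from 1.55e-18 without a filter to 0.955 without young sample 1. Its level without Adm was therefore about the same in both old samples, unlike the number of Adm-positive cells. Crip1 stood at 5518 and 3709 against 12612 and 5543 CPM (0.98, edgeR adjusted p = 0.45), with old sample 2 close to young sample 1. Ms4a6c stood at 39.0 and 49.9 against 34.5 and 125 CPM (0.85, edgeR adjusted p = 0.69), where old sample 2 alone lay above the young samples and the log2 fold change was -0.36 without it.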

How the data were processed

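Per the labels and the study's methods, the authors aligned reads to mm10 in Cell Ranger, merged both samples of an age and applied their cell filters in Seurat 2.3.0. The deposited values are raw UMI counts of 14697 genes in 14588 cells, used as deposited. Whether merging equalised the depth of the samples is not stated there. Cells were assigned to samples through the deposited cell list, and no deposited per-sample column was left out. Immunoglobulin genes were not analysed here, nor were doublets called.

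CPM are UMI sums per 1000000 UMIs of a group. Within old sample 1 ratios have exact conditional intervals at 95%, with 3 counts as the floor. Shares have exact binomial intervals. A pool of mice is the replicate in all tests. In the age test p-values measure the spread between these pools. In the paired test they measure how much the difference within a pool varies from pool to pool.

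Tests used edgeR 4.0.16 (quasi-likelihood, TMM, Benjamini-Hochberg over all genes tested, threshold 0.05) with DESeq2 1.42.0 as an alternative, in R 4.3.3. Genes with a UMI in at least 10% of cells of each age were tested for age. On simulated counts with trended dispersions false calls stayed below the nominal rate, but with gene-wise dispersions the age test's false calls exceeded it, while those of the paired test did not. Python 3.11.15, numpy 2.4.6, scipy 1.17.1 and pandas 2.3.3 did the rest.

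Named genes are the markers of the rule, the 12 highest and 12 lowest ratios per comparison, members of gene lists (highest level or largest ratio) and called genes where 10 or fewer. The cells, lists and tests were chosen with earlier results of these data known. Alternatives included other limits on Adm, Cd79a and S100a6, CPM minimums, scalings, depth, left-out samples and platelet droplets. The split by platelet droplets, the removal of the 4% of cells with the most UMIs, the S100a6 minimum on Adm-positive cells and the paired test were chosen after seeing the data. The levels of 3 genes are not reported here.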

Additional observations from a re-analysis of the deposited data

Results flagged for a closer look

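Adm was also found in droplets outside the limits of the rule. Of droplets of old sample 1 that held Cd79a but exceeded the limit on Lyz2 or Cd3, 22.2% held an Adm UMI (44 of 198, 95% exact binomial interval 16.6 to 28.7%), against 6.47% in young sample 1 (11 of 170), 3.88% in young sample 2 (5 of 129) and 1.37% in old sample 2 (1 of 73). These droplets may hold several cells and entered none of the comparisons.

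Rpl22l1, a relative of a ribosomal protein, had a ratio of Adm-positive over S100a6-positive Adm-negative B cells above 1 in both young samples (1.21, interval 1.06 to 1.37, and 1.09, 0.905 to 1.30) and below 1 in both old samples (0.526, 0.492 to 0.561, and 0.938, 0.786 to 1.11). The intervals of young sample 2 and old sample 2 include 1 and overlap. The difference between the ages was not tested.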

How the results depend on the processing

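Old sample 1 held 173 Adm-positive B cells at a minimum of 2 Adm UMIs, 124 after thinning to 1000 UMIs and 94 without platelet marker droplets, in place of 318, and 279 to 362 under the other limits. Genes past 2-fold against S100a6-positive cells numbered 53, and 313 at a CPM minimum of 10, 1867 with none and 99 at 2 Adm UMIs. Against S100a6-negative cells they numbered 280, and 1042, 2311 and, at matched UMI totals, 609 (523 higher and 86 lower, with only 15 comparison cells). The leading 12 genes stayed past 2-fold in every alternative of the first comparison, and Il6ra, Nacc2 or Pax5 fell inside it in some. The 12 were picked as the largest ratios of these same cells. Most of them reached the CPM minimum only through the Adm-positive group. Their staying past 2-fold is thus no independent support.

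With age, DESeq2 called 40 genes, edgeR's filterByExpr 21 and no filter 511, in place of 1, and leaving out 1 sample gave 0 to 142 (0 without either young sample, with 172 and 209 at an unadjusted p under 0.05, 28 without old sample 1 and 142 without old sample 2). With the replicate number as a block 6 genes were called. The numbers did not pair the samples, since deviations of same-numbered samples had r = -0.0464 over 3980 genes with only 2 pairs. Ms4a6c ranged from -0.36 without old sample 2 to 1.56 without old sample 1 (log2). In the 3 other samples the paired test called 6 genes, 0 in DESeq2, 116 with all 4 samples and 0 to 10 when 1 sample was left out.

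The planned look at immunoglobulin variable genes and its alternatives, and the one without haemoglobin droplets, were not run, the latter because 0 cells of old sample 1 would have been left. Adm-positive cells were too few outside old sample 1 to resolve low genes, and mice within a pool could not be separated.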
